A study of Mus musculus with 9 samples.

Results

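Expression of 31 interferon response genes was examined in CD8+ OT-1 T cells after co-culture with macrophages and tumor cells, with macrophages, or alone. The genes were chosen by name, as receptors, signal transducers, sensors and antiviral effectors of the interferon response, and all 31 were found among the 750 genes of the panel. Of these, 22 had a mean log2 value at or above that of 100 normalized counts in at least 1 group and 9 did not, and this level is meant wherever 100 normalized counts is named. Co-culture did not move the genes together. Against OT-1 cells alone, T cells with macrophages and tumor had higher Xaf1, Irf7, Irf5, Ifi27 and Ifnar1 and lower Ifitm1, Ifitm2 and Isg20, and 23 members did not pass the test, where the shares over the 750 genes were 14.5% higher and 3.87% lower. With macrophages against OT-1 cells alone, Ifi27 and Xaf1 were higher and Ifitm1, Ifitm2, Isg20 and Irf1 were lower, against 11.9% of all genes higher and 6.53% lower. Ifitm1, Ifitm2 and Ifnar1 were higher with macrophages and tumor than with macrophages, against 2.67% of all genes higher and 0.533% lower.

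Type I interferons bind a receptor built of the IFNAR1 and IFNAR2 chains, whose kinases activate a transcription factor complex that holds STAT2 and IRF9. It binds interferon-stimulated response elements (ISREs) in the promoters of antiviral genes, while interferon gamma, a main product of activated CD8+ T cells, has its own receptor and acts at gamma-activated sequences (GAS). Many target genes also carry basal expression in T cells, and interferons received during priming are known to support the expansion and effector function of CD8+ T cells.

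RNA was counted with the nCounter PanCancer Immune Profiling Panel, in which colour-barcoded probes bind each transcript and are counted without amplification, and values are log2 normalized counts. OT-1 cells, from mice with a transgenic T cell receptor for the SIINFEKL peptide of ovalbumin (OVA), were activated with that peptide and IL-2 and then expanded in IL-2, per a growth protocol worded alike for all 9 samples. The first group was cultured with OVA-pulsed, bone marrow-derived macrophages and CT2A-TRP2-B2mKO cells, the second with OVA-pulsed macrophages and the third alone, with 3 co-cultures each, and CD8+ cells were sorted after 24 h. CT2A-TRP2-B2mKO is 1 mouse glioma line, which expresses TRP2 and not OVA and lacks surface MHC-I through loss of β2m. The labels give 10 T cells per tumor cell and 5 per macrophage, and the methods give lower ratios. The sources differ on the OT-1 cells cultured alone, which the deposited design text calls naive and the paper calls primed, so whether they had been activated earlier, like the co-cultured cells, is not settled and bears on every difference set against them. The methods state IL-2 for OT-1 cells alone without stating whether the co-cultures had it, so a difference in IL-2 cannot be told apart from co-culture. No animal numbers link samples to separate mice, so the p-values measure only the spread between these cultures. Both comparisons against OT-1 cells alone share the same 3 samples.

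The recovered raw totals were 697471 to 898266 counts with macrophages and tumor, 132030 to 999586 with macrophages and 733866 to 1185883 in OT-1 cells alone. Macrophage replicate 2 stood apart with the total of 132030 and a scale factor of 6.38, against 0.681 to 1.36 in the other 8 samples. Of the genes under 100 normalized counts, 349 of 361 had their highest value in that sample (96.7%), against 77 of 389 genes above that level (19.8%). The sorted cells carried the T cell identity markers, with 11 of 12 at 100 normalized counts in each group, and their summed level was 74943 to 80049 counts with macrophages and tumor, 68616 to 69220 with macrophages and 52017 to 54082 in OT-1 cells alone. Of 25 measured macrophage markers, 2 reached 100 normalized counts (Cd68 and Itgax). Their summed level was 1039 to 1197 counts with macrophages and tumor, 845 to 2557 with macrophages, where the highest was replicate 2, and 793 to 997 in OT-1 cells alone, and their median log2 value was 6.48 in macrophage replicate 2 and 4.03 to 5.00 elsewhere. Of these markers, 0 were called with macrophages and tumor and Tlr2 was higher with macrophages (0.99, adjusted p = 0.0429). Of 16 measured tumor or mesenchymal markers, Spp1 (1.82, adjusted p = 4.8e-05) and Nt5e (1.83, adjusted p = 9.2e-05) were higher and Vim was lower (-0.60, adjusted p = 0.00651) with macrophages and tumor. With macrophages, where no tumor cells were added, Spp1 (2.49), Nt5e (1.41) and Axl (0.90) were higher and Vim was lower (-0.69), and Spp1 was lower with macrophages and tumor than with macrophages (-0.67, adjusted p = 0.019). That last call ended when only the 2 groups compared were fitted and with centring on the median of all genes. The summed level of these 16 markers was 25476 to 26074 counts with macrophages and tumor, 29543 to 30837 with macrophages and 26873 to 27345 in OT-1 cells alone. The part of other cell types in the differences of the members was not tested, and in bulk RNA fewer cells expressing a gene and less RNA per cell cannot be told apart. Set against OT-1 cells alone, the median difference over all genes was 0.40 with macrophages and tumor and 0.66 with macrophages. The latter was 0.20 without macrophage replicate 2. Over 371 genes with a mean of at least 100 normalized counts, and with all samples, these 2 medians were 0.21 and 0.04, and that between the co-cultures was 0.15.

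RefSeq gave the 250 bases before a transcription start for 25 of the 31 members. An ISRE core (GAAANNGAA, searched on both strands) was found in the promoters of 11 of these 25 (44.0%), against 8.18% of 27025 genes, and a GAS motif (TTCNNNGAA, both strands) in 6 of 25 (24.0%), against 8.13%. A gene was counted if any of its starts used here had a match, and matches of both motifs can overlap. The starts used were not always the outermost. For Ifitm1, Ifitm2, Isg20, Irf5, Irf7, Xaf1 and Ifnar1, which differed in a comparison, the RefSeq gene span reached upstream of every start used. The same held for Ifit2, Ifit3, Oas3 and Oasl1, which differed in none. Sequence before the outer ends of these genes was not fully searched, which limits the counts below. Of the 8 members with a promoter that differed in at least 1 comparison, Ifitm2 held an ISRE core and the other 7 did not, while 10 of 17 members that differed in none held 1. Among these 10, Ifit1, Ifit3, Cxcl9 and Cxcl10 were under 100 normalized counts. At that level 0.831% of 361 genes were higher in each co-culture against OT-1 cells alone, 0 were lower and 0 passed between the co-cultures. The split by call thus cannot be told apart from expression level, and a link between cores and differences was not tested. The GAS motif was held by 2 of the 8 members that differed (Isg20 and Irf1) and by 4 of the 17 that differed in none. The promoters of Ifitm1 (GRCm38.p6 chr7:140967826-140968075, plus strand), Ifitm2 (chr7:140955962-140956211, minus strand), Irf7 (chr7:141266425-141266674, minus strand) and Xaf1 (chr11:72301379-72301628, plus strand) are shown for the paralogs that were lower in both co-cultures and for the members with the largest called rises over OT-1 cells alone. Isg15 (chr4:156200819-156201068, minus strand) and Ifit1 (chr19:34640639-34640888, plus strand), which differed in none, are shown because each held 3 cores. Each sequence is written 5′ to 3′ on the strand of its gene, with ISRE cores of either strand in capitals, and overlapping cores run together.
Ifitm1: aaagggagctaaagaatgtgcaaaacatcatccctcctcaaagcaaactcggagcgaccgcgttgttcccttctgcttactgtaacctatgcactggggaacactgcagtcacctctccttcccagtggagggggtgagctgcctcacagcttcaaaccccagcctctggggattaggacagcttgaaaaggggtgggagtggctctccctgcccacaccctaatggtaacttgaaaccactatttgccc
Ifitm2: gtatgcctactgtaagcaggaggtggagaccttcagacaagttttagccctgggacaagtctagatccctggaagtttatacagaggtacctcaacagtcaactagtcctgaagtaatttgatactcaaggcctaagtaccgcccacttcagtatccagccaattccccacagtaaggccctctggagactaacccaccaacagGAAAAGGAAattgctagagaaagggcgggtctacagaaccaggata
Irf7: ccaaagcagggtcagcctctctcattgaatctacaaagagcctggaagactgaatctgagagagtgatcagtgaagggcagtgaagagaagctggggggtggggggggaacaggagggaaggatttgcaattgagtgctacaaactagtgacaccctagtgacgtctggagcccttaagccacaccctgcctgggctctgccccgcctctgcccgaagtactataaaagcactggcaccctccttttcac
Xaf1: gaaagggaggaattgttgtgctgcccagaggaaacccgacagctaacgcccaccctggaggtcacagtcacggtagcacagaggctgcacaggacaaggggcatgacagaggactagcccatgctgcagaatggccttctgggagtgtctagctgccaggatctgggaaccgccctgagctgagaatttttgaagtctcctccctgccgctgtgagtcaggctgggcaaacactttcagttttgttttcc
Isg15: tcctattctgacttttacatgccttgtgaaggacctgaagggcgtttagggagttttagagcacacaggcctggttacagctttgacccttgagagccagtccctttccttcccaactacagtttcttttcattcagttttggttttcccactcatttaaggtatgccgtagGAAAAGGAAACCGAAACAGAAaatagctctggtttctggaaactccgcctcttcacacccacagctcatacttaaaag
Ifit1: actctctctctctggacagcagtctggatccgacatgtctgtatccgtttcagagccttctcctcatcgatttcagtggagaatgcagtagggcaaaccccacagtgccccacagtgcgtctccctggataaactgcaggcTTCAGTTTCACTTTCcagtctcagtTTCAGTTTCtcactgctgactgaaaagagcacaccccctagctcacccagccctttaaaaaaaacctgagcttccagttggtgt
The absence of capitals in Ifitm1, Irf7 and Xaf1 says only that these letters are not in this window.

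**Figure D1:**
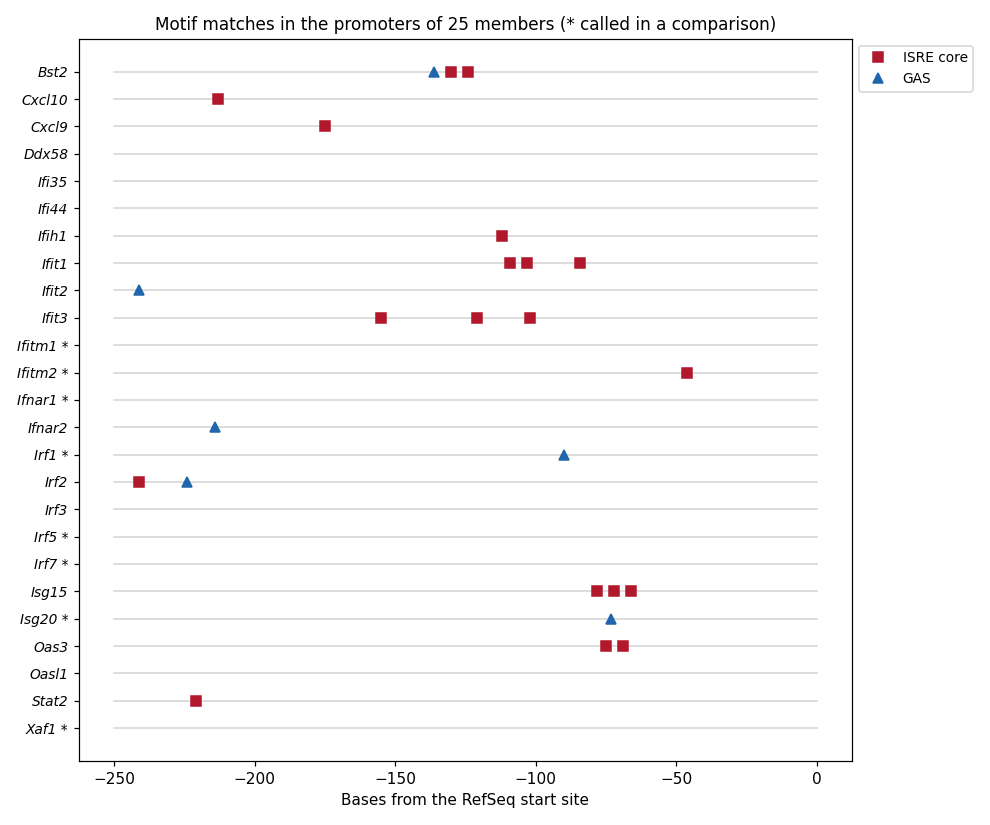
Positions of ISRE cores and GAS motifs, in bases before the transcription start, in the promoters of 25 members, with all starts used for a gene on 1 row and asterisks on members that differed in at least 1 comparison. Ifit1, Ifit3 and Isg15 each hold 3 ISRE cores, and among the members with an asterisk only Ifitm2 holds one.

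The receptor chains differed from each other in their pattern. Ifnar1, the chain that carries TYK2, had log2 values of 11.84, 11.84 and 11.97 with macrophages and tumor, 11.30, 11.07 and 11.28 with macrophages, and 11.43, 11.37 and 11.46 in OT-1 cells alone. All 3 samples with macrophages and tumor lay above the other 6. Ifnar1 was 0.46 higher in the macrophage and tumor co-cultures than in OT-1 cells alone (SE 0.09, limma adjusted p = 0.048) and 0.67 higher than with macrophages (SE 0.09, adjusted p = 0.0355). These calls were close to the threshold, and both held only without macrophage replicate 2 when single samples were left out. Without any of the other 8 samples the difference was 0.42 to 0.49 against OT-1 cells alone (adjusted p 0.0661 to 0.252) and 0.62 to 0.71 against macrophages (adjusted p 0.0816 to 0.194). Ifnar2, the chain that binds interferon with higher affinity, had values of 9.63, 9.66 and 9.79 with macrophages and tumor, 9.49, 9.57 and 9.52 with macrophages, and 9.78, 9.86 and 9.83 in OT-1 cells alone. It did not pass the test against OT-1 cells alone, at -0.13 with macrophages and tumor (SE 0.07, adjusted p = 1) and -0.30 with macrophages (SE 0.07, adjusted p = 0.155). With each sample centred on the median of its expressed genes, Ifnar2 was lower in both (-0.43 in each, adjusted p = 0.0383 and 0.0386) and Ifnar1 no longer passed (0.16 against OT-1 cells alone, adjusted p = 1, and 0.50 against macrophages, adjusted p = 0.222).

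Stat2, the transducer used by type I interferon receptors, had values of 9.13, 9.10 and 9.15 with macrophages and tumor, 8.85, 8.29 and 8.73 with macrophages, and 9.29, 9.19 and 9.39 in OT-1 cells alone. The groups did not overlap, with the macrophage samples lowest. The difference of -0.67 between macrophages and OT-1 alone (SE 0.15) had an adjusted p of 0.0913, and without macrophage replicate 2 it was -0.50 (adjusted p = 0.0256).

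Of the 5 interferon regulatory factors, Irf7 and Irf5 were higher with macrophages and tumor and Irf1 was lower with macrophages. Irf7, which amplifies type I interferon production, had values of 9.44, 9.28 and 8.97 with macrophages and tumor, 8.79, 8.65 and 8.68 with macrophages, and 8.30, 8.01 and 8.17 in OT-1 cells alone. The groups were stepped without overlap. Irf7 was 1.07 higher in the macrophage and tumor co-cultures than in OT-1 cells alone (2.10-fold, SE 0.14, adjusted p = 0.00651). The call ended with quantile normalization (0.75, adjusted p = 0.0551) and with centring on the median of all genes (0.56, adjusted p = 1). The difference with macrophages was 0.55 (SE 0.14, adjusted p = 0.164) and that between the co-cultures 0.52 (SE 0.14, adjusted p = 0.487). Irf5, a factor of Toll-like receptor signalling best known from myeloid cells, had values of 8.64, 8.65 and 8.57 with macrophages and tumor, 8.21, 8.35 and 8.30 with macrophages, and 7.91, 7.89 and 7.97 in OT-1 cells alone. It was stepped in the same order as Irf7. Irf5 was 0.70 higher in the macrophage and tumor co-cultures than in OT-1 cells alone (1.62-fold, SE 0.07, adjusted p = 0.00211) and 0.36 higher with macrophages, which missed the threshold (SE 0.07, adjusted p = 0.052). Its difference with macrophages and tumor was 0.39 with samples centred on expressed genes (adjusted p = 0.0325), and the call ended with centring on the median of all genes (0.19, adjusted p = 1).

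Irf1, an early target of interferon gamma, ran the other way. It had values of 10.67, 10.77 and 10.85 with macrophages and tumor, 10.45, 10.38 and 10.49 with macrophages, and 10.97, 10.97 and 11.01 in OT-1 cells alone. Both co-cultures lay below all OT-1 alone samples. Irf1 was lower with macrophages by a log2 difference of -0.54 (SE 0.08, adjusted p = 0.0104), and the difference with macrophages and tumor was -0.22 (SE 0.08, adjusted p = 0.525). The call with macrophages was lost when any 1 of the OT-1 alone samples was left out (-0.55, -0.55 and -0.53 without replicates 1, 2 and 3, adjusted p 0.0633, 0.0667 and 0.0687). With samples centred on expressed genes, Irf1 was also lower with macrophages and tumor (-0.52, adjusted p = 0.0191). Irf2, which antagonizes Irf1, averaged 10.74 ± 0.09 with macrophages and tumor, 10.63 ± 0.03 with macrophages and 10.43 ± 0.02 in OT-1 cells alone (SD, n = 3 each), and did not pass the test (0.31 with macrophages and tumor against OT-1 cells alone, adjusted p = 0.124). Irf3, which is activated downstream of nucleic acid sensors, averaged 9.56 ± 0.12 with macrophages and tumor, 9.50 ± 0.07 with macrophages and 9.68 ± 0.10 in OT-1 cells alone. Its difference between macrophages and tumor and OT-1 alone was -0.11, with a 95% interval of -0.34 to 0.11.

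None of the 4 sensors and adaptors among the members passed the test. In the comparison of macrophages and tumor with OT-1 alone, 14 of 31 members had an unadjusted p under 0.05, as had 269 of all 750 genes, and Ifih1, Zbp1 and Tmem173 were among them. Ifih1, the RNA sensor MDA5, had values of 8.31, 8.24 and 8.23 with macrophages and tumor, 8.22, 8.51 and 8.02 with macrophages, and 7.66, 7.68 and 7.88 in OT-1 cells alone. All 6 co-cultures lay above OT-1 alone, by 0.52 with macrophages and tumor (SE 0.13, adjusted p = 0.181) and 0.51 with macrophages (SE 0.13, adjusted p = 0.193). Without macrophage replicate 2 the adjusted p with macrophages and tumor was 0.0252. Zbp1, a sensor of Z-form nucleic acids, differed by 0.57 with macrophages and tumor (SE 0.15, adjusted p = 0.179, and 0.0295 without that sample). Tmem173 (STING, the adaptor of cytosolic DNA sensing) differed by 0.29 (SE 0.09, adjusted p = 0.408). Ddx58, the RNA sensor RIG-I, differed by 0.02, with a 95% interval of -0.17 to 0.22.

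The 3 antiviral effectors Ifitm1, Ifitm2 and Isg20, which were abundant in OT-1 cells alone, were lower in both co-cultures. Ifitm1, a membrane protein that blocks virus entry, had values of 11.88, 11.84 and 11.96 with macrophages and tumor, 10.60, 10.77 and 10.54 with macrophages, and 13.51, 13.53 and 13.54 in OT-1 cells alone. The groups were far apart relative to their spread, with the macrophage samples lowest. Ifitm1 was lower in T cells in the macrophage and tumor co-cultures than in OT-1 cells alone by a log2 difference of -1.63 (SE 0.08, adjusted p = 7.93e-05), that is, 3.10-fold. With macrophages the difference was -2.89 (SE 0.08, adjusted p = 1.51e-05), that is, 7.41-fold, the lowest of all 750 genes in that comparison. It was 2.39-fold higher with macrophages and tumor than with macrophages (1.26, SE 0.08, adjusted p = 0.00154). Its paralog Ifitm2 had values of 12.55, 12.47 and 12.43 with macrophages and tumor, 11.44, 11.47 and 11.42 with macrophages, and 13.36, 13.38 and 13.37 in OT-1 cells alone. The order of the groups was that of Ifitm1. Set against OT-1 cells alone, its differences were -0.89 with macrophages and tumor (SE 0.07, adjusted p = 0.000445) and -1.93 with macrophages (SE 0.07, adjusted p = 1.51e-05), and it was 1.04 higher with macrophages and tumor than with macrophages (SE 0.07, adjusted p = 0.00154). The probe sequences were not used here, so shared signal between these paralogs was not tested.

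Isg20, an exonuclease that degrades RNA, had values of 10.01, 9.98 and 10.16 with macrophages and tumor, 9.76, 9.78 and 9.72 with macrophages, and 10.91, 10.82 and 10.82 in OT-1 cells alone. No sample of either co-culture reached the lowest OT-1 alone sample. Isg20 was lower with macrophages and tumor by a log2 difference of -0.80 (SE 0.08, adjusted p = 0.00147) and with macrophages by -1.10 (SE 0.08, adjusted p = 0.000374). The difference of 0.30 between the co-cultures did not pass (SE 0.08, adjusted p = 0.472). Direct comparisons of Ifitm1 and Ifitm2 no longer passed when only those 6 samples were fitted or when samples were centred on the median of all genes, and with that scaling the Ifitm2 and Isg20 calls with macrophages and tumor also ended (adjusted p = 0.141 and 0.221), without a change of direction in any of these.

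**Figure D2:**
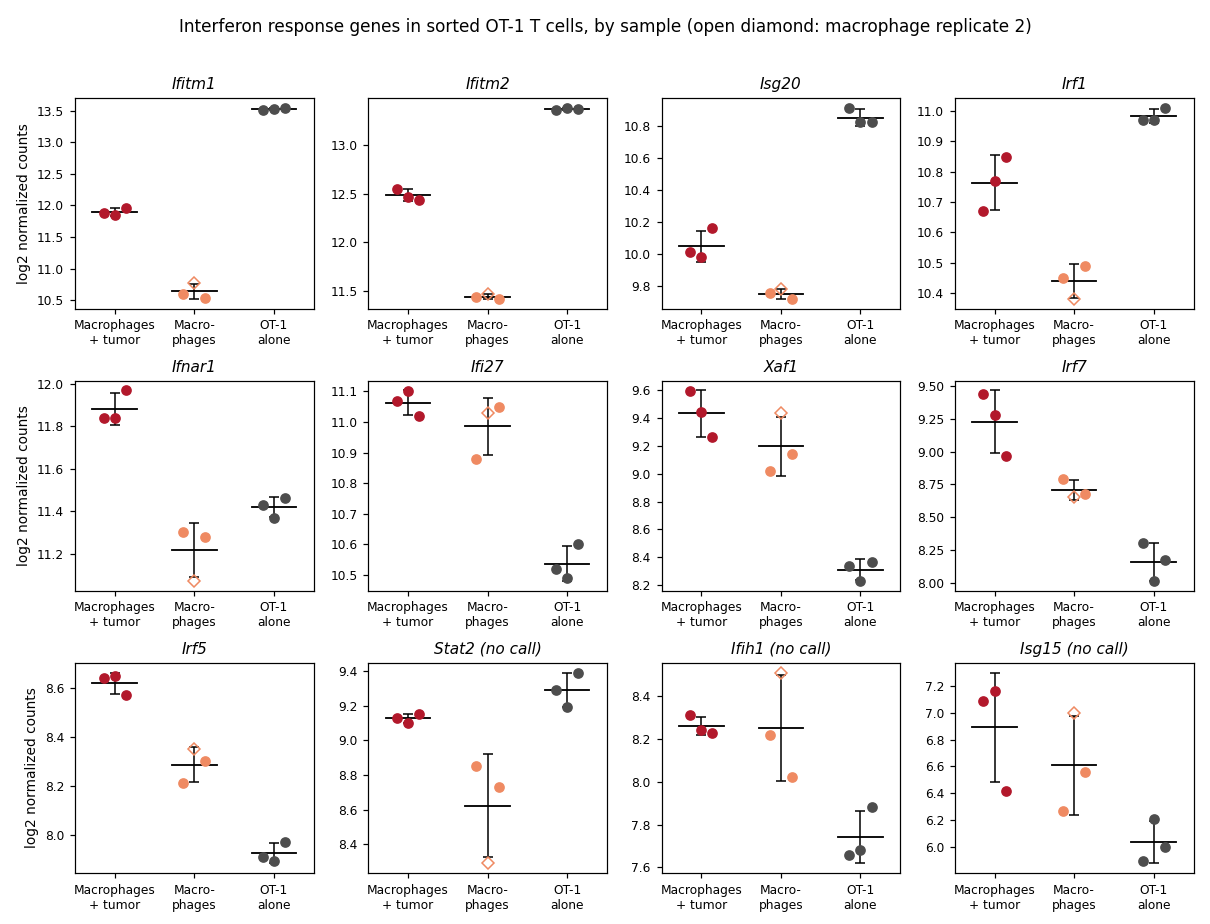
Log2 normalized counts of 12 members in each sample, by group from left to right (macrophages and tumor, macrophages, OT-1 alone), with a separate axis per gene, bars at group means and an open diamond for macrophage replicate 2. Ifitm1, Ifitm2 and Isg20 are lowest with macrophages, and Irf7 and Irf5 are highest with macrophages and tumor.

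Xaf1 and Ifi27 were higher in both co-cultures. Xaf1, a promoter of apoptosis that antagonizes XIAP, had values of 9.59, 9.44 and 9.26 with macrophages and tumor, 9.02, 9.43 and 9.14 with macrophages, and 8.34, 8.23 and 8.37 in OT-1 cells alone. All 6 co-cultures lay above OT-1 alone, and the co-cultures overlapped. Xaf1 was 1.12 higher with macrophages and tumor (2.17-fold, SE 0.13, adjusted p = 0.0047) and 0.88 higher with macrophages (1.84-fold, SE 0.13, adjusted p = 0.0162). The call with macrophages was lost without macrophage replicate 3 (0.91, adjusted p = 0.0652) and without OT-1 alone replicate 1, 2 or 3 (0.90, 0.84 and 0.91, adjusted p = 0.0797, 0.0967 and 0.0696). Both calls ended with centring on the median of all genes (0.61 with macrophages and tumor and 0.19 with macrophages, adjusted p = 1 each).

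Ifi27, a mitochondrial and nuclear membrane protein, had values of 11.07, 11.10 and 11.02 with macrophages and tumor, 10.88, 11.03 and 11.05 with macrophages, and 10.52, 10.49 and 10.60 in OT-1 cells alone. The co-cultures overlapped each other and lay above OT-1 alone. It was 0.53 higher with macrophages and tumor (SE 0.08, adjusted p = 0.0119) and 0.45 higher with macrophages (SE 0.08, adjusted p = 0.0303). With macrophages and tumor, the call was lost without replicate 1 or 2 of that group (0.52 and 0.51, adjusted p = 0.0741 and 0.0821) or of OT-1 alone (0.52 and 0.50, adjusted p = 0.0805 and 0.0844). With macrophages it held only without macrophage replicate 1 or 2, and leaving out any of the other 7 samples gave 0.42 to 0.48 (adjusted p 0.0589 to 0.171). With samples centred on expressed genes Ifi27 passed in neither (0.22, adjusted p = 0.474, and 0.31, adjusted p = 0.129).

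The other 5 expressed effectors did not pass in any comparison. Bst2 (tetherin, which retains budding virions) averaged 10.31 ± 0.26 with macrophages and tumor, 10.20 ± 0.16 with macrophages and 10.16 ± 0.08 in OT-1 cells alone (SD, n = 3 each). Ifi35 had a 95% interval of -0.22 to 0.21 for macrophages and tumor against OT-1 cells alone. Ifit2, which binds viral RNA, differed by 0.07 (interval -0.35 to 0.49) and Oas3, a sensor of double-stranded RNA that activates RNase L, by 0.12 (interval -0.46 to 0.71). Isg15, a ubiquitin-like modifier, had values of 7.09, 7.16 and 6.42 with macrophages and tumor, 6.27, 7.00 and 6.56 with macrophages, and 5.90, 6.21 and 6.0 in OT-1 cells alone. All 6 co-cultures lay above OT-1 alone, with 20 raw counts in macrophage replicate 2 where the other samples had 57 to 130, and the difference of 0.85 with macrophages and tumor had an adjusted p of 0.317 (SE 0.25).

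Across the 31 members, 5 were higher (16.1%) and 3 lower (9.68%) in the macrophage and tumor co-cultures than in OT-1 cells alone, against 14.5% and 3.87% of all 750 genes. With macrophages against OT-1 cells alone, 2 were higher (6.45%) and 4 lower (12.9%), against 11.9% and 6.53% of all genes. Between the co-cultures 3 were higher with macrophages and tumor (9.68%) and 0 lower, against 2.67% and 0.533%, and limma gave 10 members and 157 of all 750 genes an unadjusted p under 0.05. Among genes at 100 normalized counts, 22.7% of members and 27.2% of genes were higher, and 13.6% of members and 7.46% of genes lower, when macrophages and tumor were set against OT-1 cells alone. For macrophages these shares were 9.09% of members and 22.1% of genes higher, and 18.2% of members and 12.6% of genes lower. Between the co-cultures 13.6% of members and 5.14% of genes were higher, and 0 members and 1.03% of genes lower. Samples of the groups did not overlap for 21 members with macrophages and tumor against OT-1 cells alone (57.1% of all genes), for 22 with macrophages against OT-1 cells alone (53.1% of all genes) and for 12 between the co-cultures (24.9% of all genes). These 12 all had every sample with macrophages and tumor above every macrophage sample, and 152 of the 187 such genes in the whole panel ran that way. Restricted to genes at 100 normalized counts, the co-cultures did not overlap each other for 54.5% of members and 46% of genes. Under that level these shares were 0 and 2.22%. At that level, co-cultures that held tumor cells did not overlap OT-1 cells alone for 68.2% of members and 79.2% of genes. For co-cultures without tumor cells these shares were 81.8% and 66.3%. The median member difference was 0.31 for macrophages and tumor against OT-1 cells alone (0.40 over all genes), 0.20 for macrophages against OT-1 cells alone (0.66 over all genes) and 0.14 between the co-cultures (-0.12 over all genes). Without macrophage replicate 2 the median over all genes was 0.20 for macrophages against OT-1 cells alone and 0.17 between the co-cultures. The member medians without that sample were not computed. The counts depended on scaling, over the whole panel as among the members. Relative to OT-1 cells alone, samples centred on expressed genes gave 3 higher and 5 lower members with macrophages and tumor (67 and 70 of all genes). With macrophages this gave 1 higher and 6 lower (62 and 67 of all genes). Quantile normalization gave 2 higher and 6 lower with macrophages and tumor (72 and 68 of all genes). With macrophages it gave 1 higher and 6 lower (68 and 68 of all genes). Centring on the median of all genes gave 0 higher and 1 lower with macrophages and tumor (13 and 15 of all genes). With macrophages it gave 0 higher and 3 lower (7 and 30 of all genes).

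**Figure D3:**
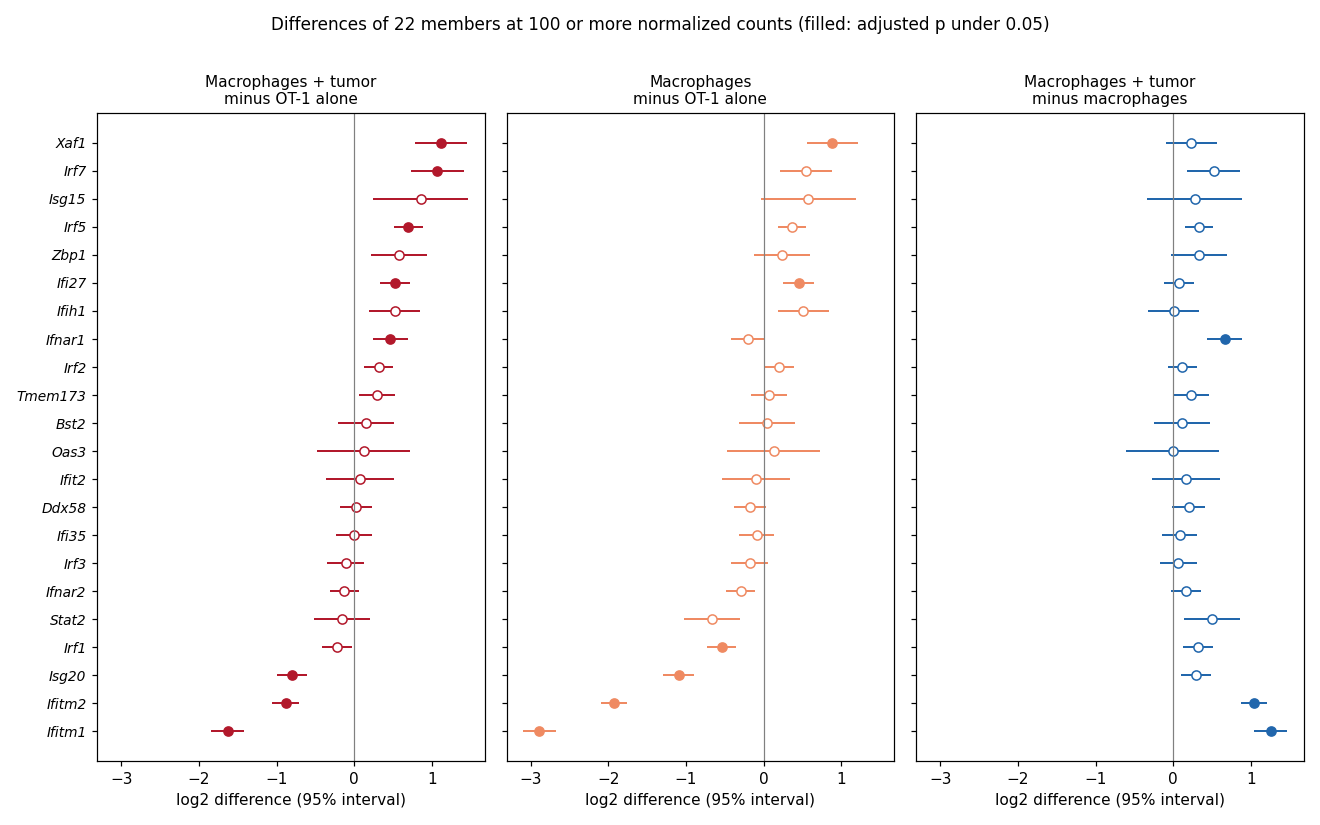
Log2 differences with 95% intervals for the 22 members at 100 normalized counts in a group, in the 3 comparisons on 1 shared scale, with filled points for members past the limma threshold of an adjusted p of 0.05. Ifitm1 and Ifitm2 lie furthest below 0 against OT-1 cells alone and furthest above 0 between the co-cultures.

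The 9 members under 100 normalized counts included many classical interferon targets: Ifit1 and Ifit3 (translation inhibitors that bind viral RNA), Ifi44, Mx1 and Mx2 (dynamin-like GTPases), Oas2 and Oasl1 (of the oligoadenylate synthetase family), and the chemokines Cxcl9 and Cxcl10, which draw CXCR3+ T cells. None passed the test in any comparison. Limma gave 0 of the 9 an unadjusted p under 0.05 with macrophages and tumor against OT-1 cells alone, 3 with macrophages (where 100 of the 361 genes under this level had one) and 0 between the co-cultures. Under single alternatives Mx1 was lower (quantile normalization, -0.94 with macrophages and tumor and -1.03 with macrophages, adjusted p = 0.0213 and 0.0133) and Mx2 higher (sample weights, 1.14 with macrophages and tumor, adjusted p = 0.0488, and Benjamini-Hochberg adjustment, 1.72 with macrophages, adjusted p = 0.0459). All 9 had their highest log2 value in macrophage replicate 2, the sample of lowest depth. For Ifit1 that value was 8.07, against 5.20 to 6.22 in the other 8 samples, although its recovered raw count there was 42, the lowest of a range of 42 to 65. Raw counts over all samples were 5 to 19 for Mx1, 26 to 51 for Oas2, 7 to 37 for Cxcl9 and 20 to 68 for Cxcl10. The summed raw counts of the 9 members were 253 to 456 with macrophages and tumor, 210 to 347 with macrophages and 272 to 365 in OT-1 cells alone. Those of the 22 expressed members were 21835 to 28933 with macrophages and tumor, 3425 to 25334 with macrophages and 36471 to 59358 in OT-1 cells alone. Raw sums are not adjusted for depth, and 2 genes weigh heavily in the latter. In OT-1 cells alone Ifitm1 had 10578 to 17131 raw counts and Ifitm2 9402 to 15439. With macrophages and tumor they had 2923 to 3589 and 4049 to 5711, and with macrophages 274 to 1855 and 445 to 3320. The background of the negative control probes was not used here, so whether these 9 genes were above it was not tested.

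**Figure D4:**
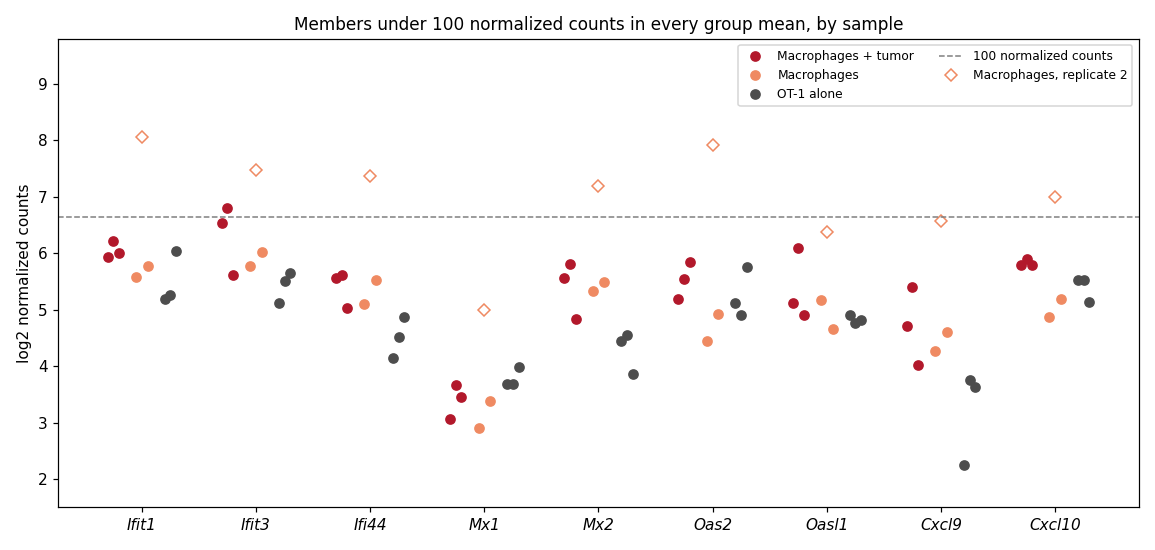
Log2 normalized counts of the 9 members under 100 normalized counts in each sample, by group from left to right (macrophages and tumor, macrophages, OT-1 alone), with an open diamond for macrophage replicate 2. That sample is the highest for all 9 genes, at 8.07 for Ifit1 and 5.00 for Mx1.

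Other genes of the interferon pathway showed changes above and below the members. Of 6 measured ligand genes, Ifng (interferon gamma) was higher in both co-cultures and the other 5 did not pass. Ifng had values of 10.30, 10.24 and 9.71 with macrophages and tumor, 9.65, 9.91 and 9.55 with macrophages, and 7.62, 7.75 and 8.07 in OT-1 cells alone. It was 2.27 higher with macrophages and tumor (SE 0.20, adjusted p = 0.000968) and 1.89 higher with macrophages (SE 0.20, adjusted p = 0.00275). Of 10 other receptor and signalling genes, 5 were higher with macrophages and tumor, 3 with macrophages and 2 between the co-cultures, and 0 were lower. All 10 reached 100 normalized counts, where the shares of all genes higher were 27.2%, 22.1% and 5.14%. Irf8, an interferon gamma-inducible regulatory factor, was 1.59 higher with macrophages and tumor (SE 0.12, adjusted p = 0.000391) and 1.15 higher with macrophages (SE 0.12, adjusted p = 0.00225). Ifngr1, the ligand-binding chain of the interferon gamma receptor, was 1.26 higher with macrophages and tumor than with macrophages (SE 0.08, adjusted p = 0.00154), and Stat3 was 1.01 higher (SE 0.11, adjusted p = 0.0136).

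Socs1, which inhibits JAK kinases, was the 1 brake of 3 measured that passed. It had values of 8.69, 8.60 and 8.53 with macrophages and tumor, 8.43, 8.90 and 8.51 with macrophages, and 10.08, 10.17 and 10.04 in OT-1 cells alone. Its differences against OT-1 cells alone were -1.49 (SE 0.13, adjusted p = 0.000977) with macrophages and tumor and -1.48 (SE 0.13, adjusted p = 0.00128) with macrophages. Of 15 other sensors and adaptors, 1 was lower in each co-culture (Traf3) and 0 were higher. Of 21 other interferon-stimulated genes, 13 reached 100 normalized counts, where the same shares of all genes hold. With macrophages and tumor 5 of the 21 passed, all of them higher, where 14.5% of all 750 genes were higher and 3.87% lower. Among these 5, Ccl2, a monocyte chemokine under 100 normalized counts in every group, had the largest difference (2.65, SE 0.30, adjusted p = 0.00358). With macrophages 2 of the 21 were higher and 2 lower, where 11.9% of all genes were higher and 6.53% lower. Cmpk2, a mitochondrial nucleotide kinase, was 1.37 higher (SE 0.17, adjusted p = 0.00518). Between the co-cultures 0 of these 21 passed, where 2.67% of all genes were higher and 0.533% lower.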

How the data were processed

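RNA of sorted CD8+ T cells was counted on the nCounter PanCancer Immune Profiling Panel. The authors deposited log2 normalized values with 2 decimals for 750 genes in 9 samples, made in nSolver from the counts per the methods. The vendor's analysis software was not run here, and the instrument's raw counts, control probes and housekeeping genes were not used here, so normalization could not be repeated. Raw counts were recovered from the steps between low values (100% of values under 30 normalized counts were whole multiples within 0.0075 on the log2 scale), and they give the depth per sample.

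The 3 groups were fitted in 1 model over the 9 samples (functions lmFit and eBayes of limma 3.58.1, R 4.3.3) and contrasted in pairs. Two-sided p-values of all 750 genes, low ones included, were adjusted by the Benjamini-Yekutieli method as in the study, and 0.05 was the threshold. The 95% intervals are unadjusted. An exact permutation test of 3 samples against 3 cannot go below p = 0.1. The procedure was tested on simulated data that gave each gene the same spread in all 9 samples. Such a test does not cover a sample that stands apart in depth, as macrophage replicate 2 does. The 31 members and the other lists were chosen with earlier results of these data known. All members are named, those past the threshold with every sample, and of other pathway genes up to 4 per comparison among those with the largest differences. In all, 19 alternatives were run: other scalings, a floor, 20 added counts, a filter, 2 groups alone, a replicate block, Benjamini-Hochberg adjustment, sample weights and each sample left out. Names and promoters are from RefSeq (GRCm38.p6), where 30 members are current symbols and 1 (Tmem173) is listed as a synonym of Sting1. Ifi27, Mx1, Mx2, Oas2, Zbp1 and Tmem173 had no promoter in the table used.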

Additional observations from a re-analysis of the deposited data

How the results depend on the processing

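The members called numbered 8 for macrophages and tumor and 6 for macrophages, each set against OT-1 cells alone, and 3 between the co-cultures. Leaving out 1 sample gave 6 to 10, 3 to 7 and 2 to 3 in these comparisons. Without OT-1 alone replicate 1, 2 or 3 the member count with macrophages was 3 each time, and 56 to 59 of all genes were higher and 26 to 28 lower. Centring on the median of all genes gave 1, 3 and 0 members. Fitting only the 2 groups compared gave 3 members with macrophages (48 of all genes higher and 25 lower) and 0 between the co-cultures. The sample medians that centring on all genes takes out differed by 0.51, 0.70 and -0.18 in the 3 comparisons. Macrophage replicate 2 enters only the last 2 of these values, though its spread enters all 3 tests. In these 2 counts of 0 by limma, 3 and 8 members had an unadjusted p under 0.05. Testing only genes at 100 normalized counts, with fewer tests to adjust for, gave 11 members with macrophages and 5 between the co-cultures. Over the genes tested this gave 106 higher and 73 lower, and 55 and 9. Benjamini-Hochberg adjustment gave 12 and 5 members, with 142 of all genes higher and 84 lower, and 53 and 9. Sample weights gave 15 members with macrophages and tumor, 10 with macrophages and 5 between the co-cultures. Over all genes these weights gave 193 higher and 59 lower, 129 and 96, and 61 and 10. The counts thus moved over the whole panel as among the members. The other alternatives kept the counts within 1.5 times. A called difference changed sign only with centring on the median of all genes, each time relative to OT-1 cells alone. This held for Ifi27 with macrophages (-0.25), where the centring takes 0.70 off every gene. It also held for Ifnar1 with macrophages and tumor (-0.047), where it takes off 0.51. The calls of Ifitm1 in both comparisons against OT-1 alone, and of Ifitm2 and Isg20 with macrophages against OT-1 alone, passed in all 19 alternatives.

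The deviations of same-numbered samples had correlations of -0.37 to 0.46 over all genes, and those of differently numbered samples -0.462 to 0.465. These overlapping ranges do not settle whether the samples were paired, and the numbers were not read as pairs in the main fit. With a replicate block, 6, 4 and 2 members were called, against 91, 66 and 9 of all genes higher and 20, 30 and 1 lower. The calls of Ifi27 in both comparisons against OT-1 alone, of Xaf1 with macrophages and of Ifnar1 in both of its comparisons ended with this block. Depth was lowest in macrophage replicate 2, where 254 of 750 genes had under 20 raw counts, and leaving this sample out called none of the 9 members under 100 normalized counts.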
